A study of Mus musculus with 3 samples.

Results

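The cytochrome P450 (Cyp) family was examined across 1 list of sites bound by ESRRA, estrogen-related receptor alpha, in mouse intestine. Members were all protein-coding genes of the GENCODE M1 annotation, on mouse genome build mm9, whose symbol is Cyp followed by a number, a letter and a number. This gave 90 of 22367 protein-coding genes, in 16 families. An ESRRA peak was assigned to a gene when its midpoint lay within 30 kb of a transcript start site, and genes without one served as negatives. Of 1639 peaks, 12 lay near a Cyp gene.

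The study carried out ESRRA ChIP-seq, in which chromatin bound by a protein is pulled down with an antibody and sequenced, in 2 libraries, with 1 library of input chromatin. All 3 libraries were adult villus cells of the duodenal epithelium from WT mice, which the study describes as C57BL/6 animals on regular chow. Peaks were called once, on both ChIP libraries merged, and each carried a position and no height, so that no value per library and no error between animals can be given. The study states a range of reads for its ChIP-seq libraries, but the list holds no depth for each library or peak. The Wilson intervals, Poisson intervals and limits for counts of 0 given here cover counting error only, and no test between groups was possible. A limit for a count of 0 is 3 counts divided by the total, which is coarse where the total is small. The list holds no expression, and the label of villus cells was therefore not checked against enterocyte markers.

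Cytochrome P450 enzymes are heme proteins that insert an oxygen atom into their substrates. Most sit in the membrane of the endoplasmic reticulum and receive electrons from P450 oxidoreductase (Por), while a smaller group works in mitochondria with ferredoxin. Enzymes of subfamily 3A oxidize many drugs and steroids in liver and in villus enterocytes, family 4 hydroxylates the ends of fatty acids, and other families make or break down bile acids, steroid hormones and the active forms of vitamins. ESRRA is an orphan nuclear receptor best known for genes of mitochondrial respiration, and it binds a single AGGTCA sequence extended at its 5′ side, most often as TCAAGGTCA.

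The sequences within the Cyp peaks that come closest to such a site are shown first, since no TCAAGGTCA was found in any of the 12 peaks. Each line reads 5′ to 3′ on the strand of the match in mm9, and the capitals mark the 9 bases that end in AGGTCA.
Cyp3a13 intron, chr5:138351374-138351422, + strand: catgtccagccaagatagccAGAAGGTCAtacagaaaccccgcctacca
Cyp2d22 peak, in an intron of Ndufa6, chr15:82183667-82183715, + strand: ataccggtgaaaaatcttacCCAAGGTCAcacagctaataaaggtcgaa
Cyp4f13 and Cyp4f14 peak, chr17:33062096-33062144, - strand: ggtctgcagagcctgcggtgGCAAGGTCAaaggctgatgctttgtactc
Cyp3a13 upstream, chr5:138369997-138370045, + strand: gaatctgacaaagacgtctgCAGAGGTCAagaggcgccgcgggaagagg
Cyp3a25 start site, chr5:146820670-146820718, - strand: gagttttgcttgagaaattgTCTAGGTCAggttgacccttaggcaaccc
Cyp3a59 upstream, chr5:146880867-146880915, - strand: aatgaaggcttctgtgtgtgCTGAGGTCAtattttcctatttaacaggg
Cyp4f14 downstream, chr17:33038341-33038389, + strand: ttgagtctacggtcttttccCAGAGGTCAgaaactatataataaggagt
The first 3 hold the 7-base half-site AAGGTCA, and the other 4 hold AGGTCA preceded by a base other than A.

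Peaks were found near 9 of the 90 Cyp genes (10.0%, Wilson 95% interval 5.35% to 17.9%), beside 8.75% of all protein-coding genes. These were Cyp2d22, Cyp2j13, Cyp2w1, Cyp3a13, Cyp3a25, Cyp3a59, Cyp4f13, Cyp4f14 and Cyp11b2. The background share lay inside the interval of the family. Within 1 kb of a start site, 2 of 90 genes had a peak (2.22%, interval 0.612% to 7.74%), beside 2.08% of all protein-coding genes. Cyp3a25 and Cyp4f13 were these 2 genes. Cyp genes with 1 annotated start site had a peak in 6 of 51 cases (11.8%), beside 6.83% of 9844 genes with 1 site. Those with 2 sites had none in 21 (background 7.41%), and those with 3 or more had one in 3 of 18 (16.7%, background 11.4%).

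Many Cyp genes lie in tandem arrays, so neighbouring members at most 200 kb apart were joined and counted once. The 90 genes formed 37 loci, of which 13 held 2 or more genes and 66 genes in all. A peak was present at 7 of the 37 loci, 5 of them arrays and 2 of them single genes. The genes with a peak belonged to 4 of the 16 families, namely 2, 3, 4 and 11, a count that likewise has no background.

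The distance from a Cyp gene to its nearest peak ran from 0.371 kb at Cyp3a25 to 3257 kb at Cyp7b1. Its quartiles were 149, 440 and 906 kb, beside 139, 448 and 1197 kb over all protein-coding genes. Most members were far from any peak, with 72 of 90 more than 100 kb away and 9 between 30 and 100 kb. This was also true of protein-coding genes in general, whose lower quartile of 139 kb lies beyond 100 kb. Cyp2d22, at 27047 bp, lay just inside the 30-kb limit, and Cyp11b1, at 36.3 kb, lay just outside it.

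**Figure D1:**
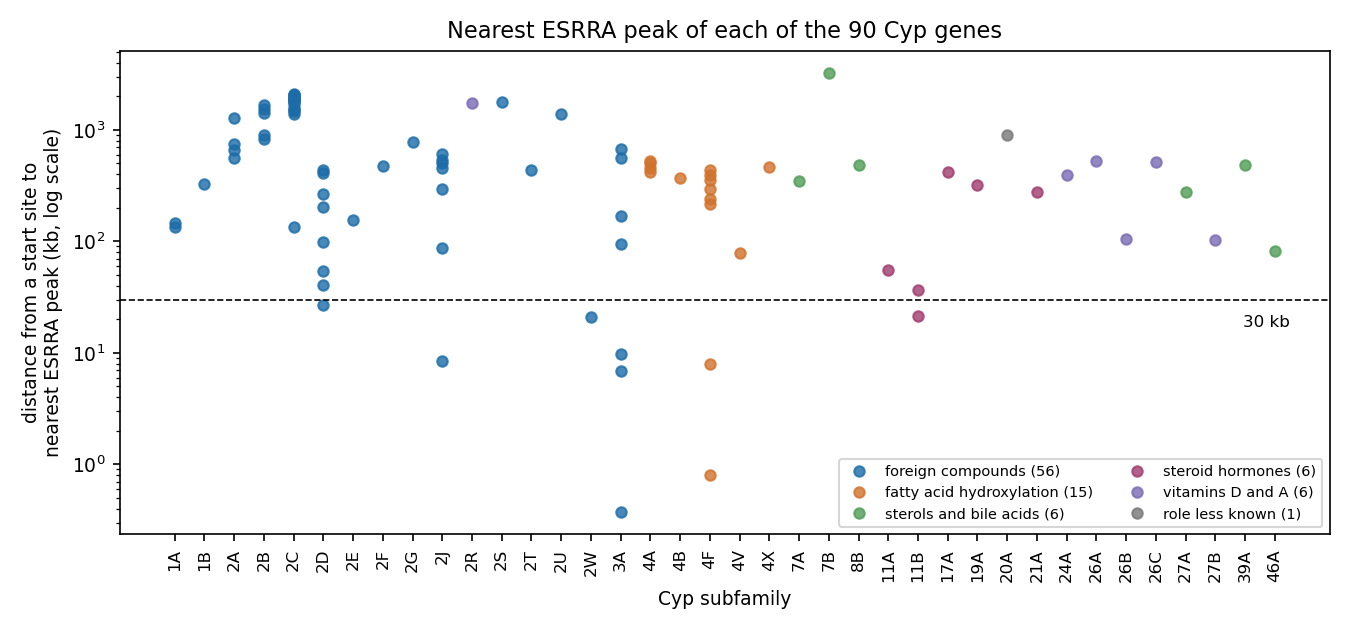
Distance from a start site to the nearest ESRRA peak (kb, log axis) for each of the 90 Cyp genes, by subfamily, with 1 point per gene coloured by role. The 9 genes below the dashed 30-kb line belong to families 2, 3, 4 and 11, and 72 members lie beyond 100 kb. The lower quartile over all protein-coding genes, 139 kb, is also beyond 100 kb.

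The enzymes that act mainly on foreign compounds and arachidonic acid had a peak at 6 of 56 genes (10.7%, interval 5.00% to 21.5%). They are families 1, 2 and 3, except the vitamin D gene Cyp2r1, and the figures label them foreign compounds. Within this group, subfamily 3A had a peak at 3 of 7 genes (42.9%, interval 15.8% to 75.0%) and family 2, with Cyp2r1, at 3 of 47 (6.38%, interval 2.19% to 17.2%). The 8.75% of all protein-coding genes lay below the interval of subfamily 3A and inside that of family 2. These intervals treat the genes of an array as independent and make no allowance for the number of subfamilies compared. Whether subfamily 3A differs from the background was therefore not tested. Of the 3A genes with a peak, Cyp3a25 and Cyp3a59 are neighbours in 1 array and Cyp3a13 stands alone. Thus 2 of the 3 loci formed by the 7 members of this subfamily had a peak. The 7 leave out Cyp3a41a and Cyp3a41b, whose symbols end in a letter and which had no peak within 30 kb. Family 2 contributed Cyp2d22, 1 of 8 genes of subfamily 2D, Cyp2j13, 1 of 7 of subfamily 2J, and Cyp2w1. Subfamily 2C, which oxidizes drugs and arachidonic acid, had no peak at any of 15 genes. A count of 0 of 15 allows a share of up to 20.0% if genes are taken as independent. However, 14 of these genes form 1 array and Cyp2c44 stands alone, so the true limit is wider. The median distance of the 15 genes to a peak was 1831 kb, which mostly reflects that array. None of the 5 genes of subfamily 2B, the 4 of 2A or the 3 of family 1 had a peak.

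Fatty acid hydroxylases of family 4 had a peak at 2 of 15 genes (13.3%, interval 3.74% to 37.9%), and both were among the 8 genes of subfamily 4F. These 2 genes, Cyp4f13 and Cyp4f14, form 1 locus and share the same peaks. The interval treats them as independent and is therefore too narrow. The 4 genes of subfamily 4A had none, which allows a share of up to 75.0%. Steroid hormone enzymes had a peak at 1 of 6 genes (16.7%, interval 3.01% to 56.4%), the aldosterone synthase gene Cyp11b2. Enzymes of sterols and bile acids had none in 6, and those of vitamins A and D had none in 6, which allows a share of up to 50.0% in each group. Cyp20a1, whose role is less known, lay 904 kb from a peak.

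**Figure D2:**
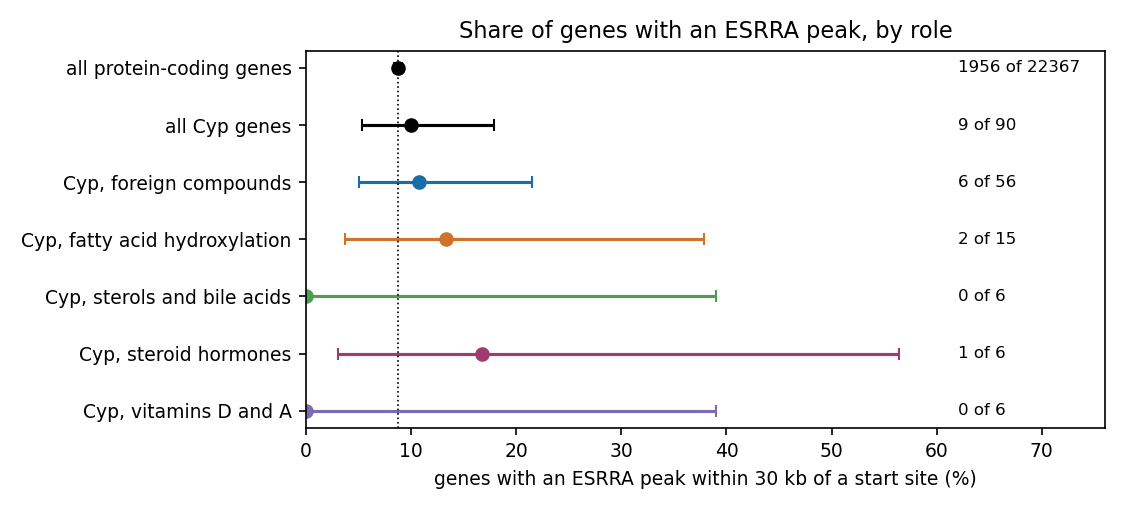
Share of Cyp genes with an ESRRA peak within 30 kb of a start site (percent), by role, beside all Cyp and all protein-coding genes, with Wilson 95% intervals and the counts at the right. The dotted line marks the 8.75% of all protein-coding genes and lies inside the interval of each role group.

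Cyp3a25, a member of the drug-oxidizing 3A subfamily, had the closest peak of the family. Its peak at chr5:146820503-146821103 had its midpoint 371 bp downstream of a coding start site, in the first part of the gene. A second peak, at chr5:146811410-146812010, lay in an intron 9.48 kb from the 5′ end. The third, at chr5:146786794-146787394, lay 1.68 kb past the 3′ end of the gene, and 34.1 kb from its 5′ end, so that it was assigned through an internal noncoding start 16.1 kb away. These 3 peaks formed a run over 33.7 kb, and only the one at the start site held an AGGTCA sequence, 109 bp from its midpoint.

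Cyp3a59 lies next to Cyp3a25, and its peak at chr5:146880733-146881333 was intergenic, 9.80 kb upstream of the start site. The AGGTCA shown above lay 142 bp from the midpoint of this peak. Cyp3a11, the main 3A enzyme of mouse liver, is in the same array, and its nearest peak was 95.6 kb away. The remaining 3A array, of Cyp3a57 and Cyp3a16, had no peak, with the nearest 557 kb from a start site.

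Cyp3a13, a 3A enzyme known from small intestine, had a peak in an intron 11.4 kb downstream of its start (chr5:138351194-138351794). Its other peak was intergenic, 6.93 kb upstream of the start (chr5:138369477-138370077). The intronic peak held AAGGTCA 96 bp from its midpoint, and the upstream peak held AGGTCA 244 bp from its midpoint, near the edge. Both belonged to a run of 4 peaks over 39.5 kb. The other peaks of this run, at chr5:138329984-138330584 and chr5:138331773-138332373, lay past the 3′ end of Cyp3a13, 32.6 and 30.8 kb from its start, and thus just outside the 30-kb limit.

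**Figure D3:**
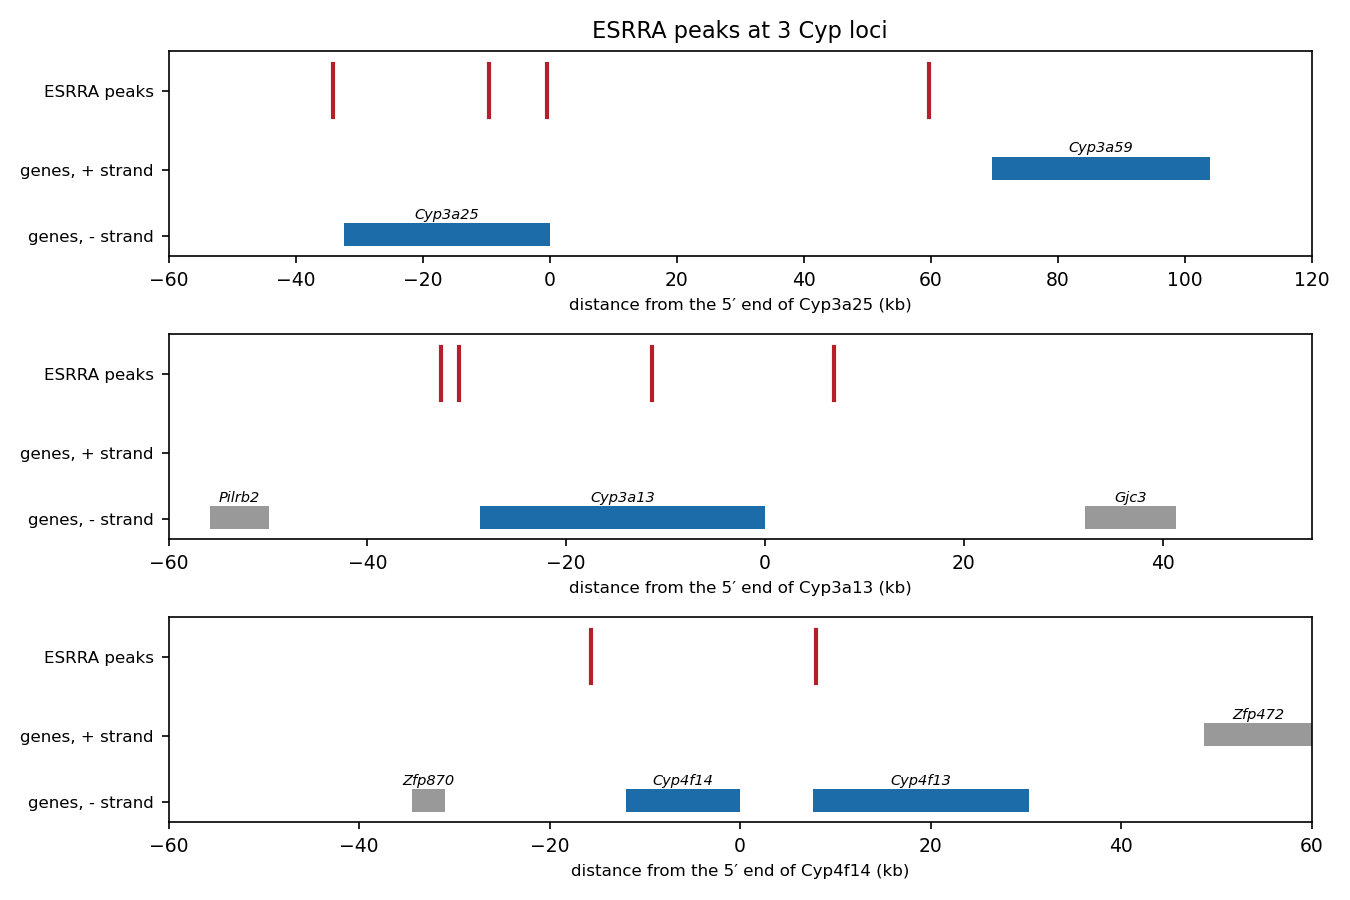
Maps of the regions of Cyp3a25 and Cyp3a59 (top), Cyp3a13 (middle) and Cyp4f14 and Cyp4f13 (bottom), with the distance in kb from the 5′ end of Cyp3a25, Cyp3a13 or Cyp4f14, protein-coding genes as bars by strand (Cyp blue, others grey) and ESRRA peaks as red marks. Peaks lie at the start of Cyp3a25, upstream of Cyp3a59, Cyp3a13 and Cyp4f14, within genes and past the 3′ ends.

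Cyp4f14 encodes a hydroxylase of leukotrienes and of vitamin E, and Cyp4f13 is its neighbour in the 4F subfamily. The peak at chr17:33061727-33062327 lay 8.00 kb upstream of Cyp4f14 and inside Cyp4f13, 394 bp from the 3′ end of that gene. It counted as a start-site peak of Cyp4f13 only because a retained-intron transcript of 554 bp begins 803 bp away, and the 5′ end of the gene was 22.3 kb away. This peak held 2 AAGGTCA sequences, 93 and 281 bp from its midpoint, and had the highest GC content of the 12 (63.2%). A second peak, at chr17:33037974-33038574, was intergenic, 15.7 kb downstream of the Cyp4f14 start and 3.74 kb past its 3′ end. It lay 24.6 kb from an internal start of Cyp4f13 and 46.1 kb from the 5′ end of Cyp4f13, and it held AGGTCA 91 bp from its midpoint. The start site closest to it was that of Zfp870, at 15.2 kb.

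The remaining 4 genes each had 1 peak, none within 1 kb of a Cyp start. At Cyp2j13, of a subfamily that makes epoxides of arachidonic acid, the peak lay in an intron (chr4:95719969-95720569), 8.45 kb downstream of an internal coding start and 23968 bp from the 5′ end. Its 24-base words occurred a median of 1346 times in the genome, which places it in repeated sequence. Cyp2w1, known from fetal and malignant colon, had a peak 20.8 kb upstream (chr5:139807445-139808045), and Adap1 was closer, at 6.17 kb. Cox19, which encodes an assembly factor of cytochrome c oxidase, was also within 30 kb of it. Neither of these peaks held AGGTCA.

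The Cyp11b2 peak (chr15:74708068-74708668) lay 21.6 kb upstream, was closer to 2010109I03Rik (3.77 kb), held no AGGTCA and had a median of 152 copies per word. Cyp11b1, which encodes the enzyme of the last step of glucocorticoid synthesis, lay 36.3 kb from its nearest peak. The Cyp2d22 peak (chr15:82183343-82183943) lay 17.3 kb past the 3′ end of that gene and 27047 bp from its start. It was in an intron of Ndufa6, a subunit gene of respiratory complex I, 1.08 kb from the Ndufa6 start, with AAGGTCA 48 bp from its midpoint.

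For 8 of the 12 peaks the closest protein-coding start belonged to a Cyp gene, and for 4 it belonged to Adap1, 2010109I03Rik, Ndufa6 or Zfp870. Of the 12, 10 were near 1 Cyp gene and 2 were near both 4F genes. A single protein-coding gene, of the Cyp family, had a start within 30 kb of 7 of the 12 peaks (58.3%), and 539 of 1237 other peaks near a gene (43.6%) had a single gene. By position, 2 of the Cyp peaks were at a start site (16.7%), 4 in introns and 6 intergenic (50.0%), beside 29.9% at start sites and 35.2% intergenic among the other 1627 peaks. Another peak lay within 30 kb for 7 of the 12 (58.3%), beside 36.2% of the others. These 7 belonged to the runs at Cyp3a13, Cyp3a25 and Cyp4f14, so they are not independent. The shares in this paragraph rest on 12 Cyp peaks and were not tested for a difference from the others. The median GC content was 43.0% (39.6% to 63.2%), beside 48.8%.

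Peaks per length were also compared, since an array covers more sequence than 1 gene. The joined 30-kb windows around Cyp start sites covered 4.96 Mb and held 12 peaks, or 2.42 per Mb (exact Poisson 95% interval 1.25 to 4.22). The windows of all protein-coding genes held 1.22 peaks per Mb, and the whole genome 0.617. With peaks of single-copy sequence only, the Cyp windows held 10 peaks, or 2.01 per Mb (interval 0.966 to 3.70). The windows of all protein-coding genes then held 1.10 per Mb, inside that interval. Without the 3 loci of subfamily 3A, the Cyp windows held 6 peaks in 4.53 Mb, or 1.33 per Mb (interval 0.486 to 2.89). Peaks in a run are not independent, and the intervals do not account for this. By locus, the density was 33.3 per Mb at Cyp3a13, 22.1 at Cyp4f14 and 15.5 at Cyp3a25, from 2, 2 and 4 peaks. The Cyp2c29 array had none in 0.822 Mb, the longest window of the family.

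Sequences were matched exactly on both strands. TCAAGGTCA and TNAAGGTCA both contain AAGGTCA, which contains AGGTCA, so these counts overlap. AAGGTCA was present in 3 of the 12 Cyp peaks (25.0%, interval 8.89% to 53.2%), beside 44.1% of the other peaks (interval 41.7% to 46.6%). In peaks of single-copy sequence the shares were 3 of 10 (30.0%) and 51.6%. AGGTCA was present in 7 of 12 (58.3%, interval 32.0% to 80.7%), beside 61.4%. TCAAGGTCA was present in 0 of 12, which allows a share of up to 25.0%, beside 14.4% of the other peaks, and TNAAGGTCA in 0 of 12, beside 20.5%. Each of these background shares was inside the interval or under the limit that 12 peaks allow.

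**Figure D4:**
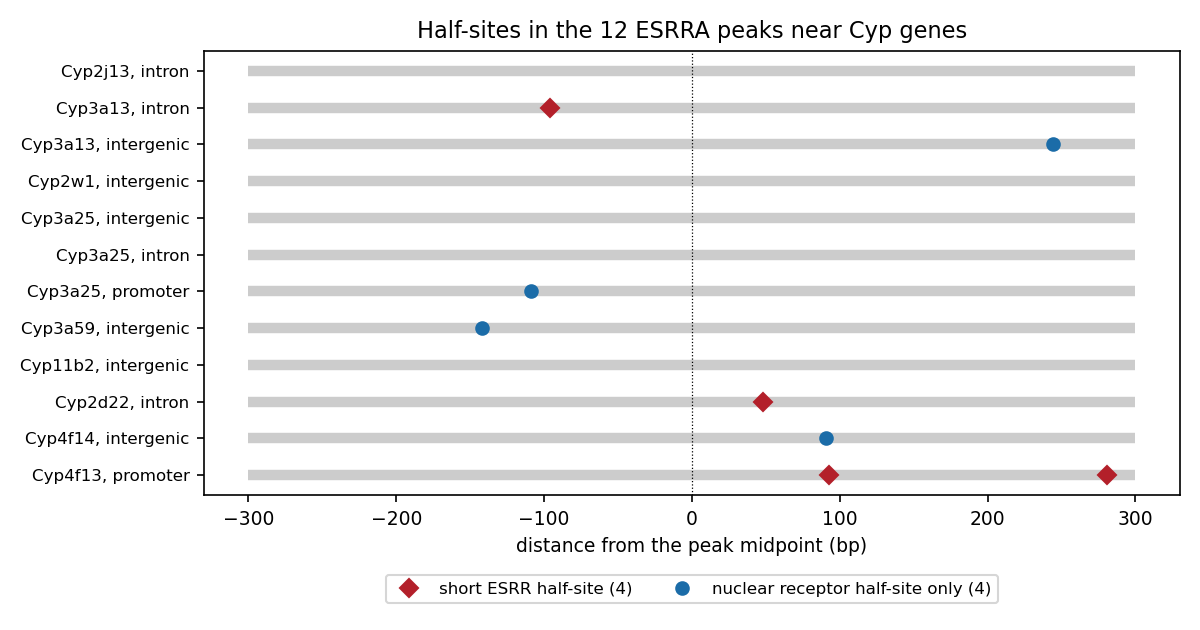
Position of each AAGGTCA (short ESRR half-site, red) and other AGGTCA (nuclear receptor half-site only, blue) in the 12 peaks near Cyp genes, as distance from the peak midpoint in bp, with 1 row and 1 grey bar per peak. The 8 matches lie in 7 peaks, 48 to 281 bp from the midpoint, and 5 peaks hold none.

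Sequences bound by other intestinal factors were counted in the same way. CAAAGTCCA, of the HNF4 receptors, was in no Cyp peak (2.58% of the others). AGATAAG, of the GATA factors, was in 2 (16.7%, others 9.83%), and CCATAAA, of the CDX factors, was in 2 (16.7%, others 6.52%). The interval for each count of 2 was 4.70% to 44.8%, which holds both background shares. In single-copy peaks the shares were 10.0% beside 10.6% for AGATAAG and 20.0% beside 7.74% for CCATAAA.

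**Figure D5:**
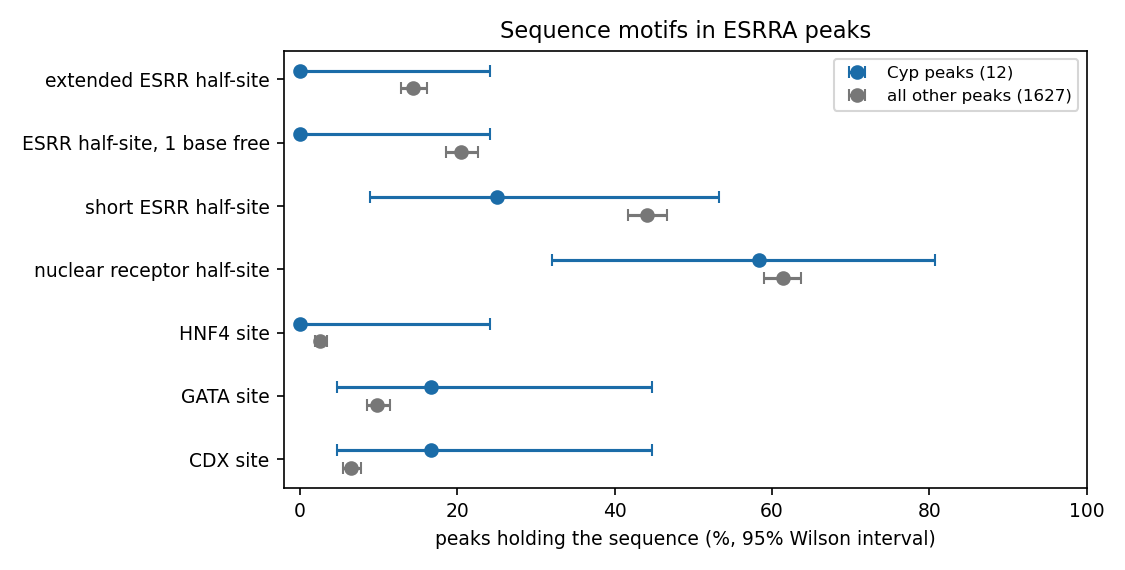
Share (percent) of the 12 Cyp peaks and of the 1627 other peaks that hold each sequence, with Wilson 95% intervals, in the order TCAAGGTCA (extended ESRR half-site), TNAAGGTCA, AAGGTCA (short ESRR half-site), AGGTCA (nuclear receptor half-site), HNF4, GATA and CDX. TCAAGGTCA is in none of the Cyp peaks and in 14.4% of the others, and AGGTCA is in 58.3% and 61.4%.

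The promoter windows, 250 bases before to 50 after the 5′ end of each gene, were searched for the same sequences. AAGGTCA was present in 6 of the 90 Cyp windows (6.67%, at 5 loci), beside 3.92% of all protein-coding windows. These were the windows of Cyp2f2, Cyp2s1, Cyp2u1, Cyp3a25, Cyp3a57 and Cyp3a59. Those of Cyp2s1 and Cyp2u1 held TCAAGGTCA (2.22%, background 0.358%). TNAAGGTCA was in 3.33% (background 1.07%) and AGGTCA in 26 windows at 17 loci (28.9%, background 14.4%). CAAAGTCCA was in 9 windows at 4 loci (10.0%, background 0.456%), those of Cyp2c40, Cyp2c65, Cyp2c67, Cyp2c68, Cyp2c69, Cyp2c70, Cyp3a11, Cyp3a16 and Cyp8b1. None of these 9 genes had an ESRRA peak, beside 10.0% of all Cyp genes. At that share, 9 genes are too few to tell them apart from the family. AGATAAG was in 3.33% (background 2.74%) and CCATAAA in 4.44% (background 2.57%). Array genes resemble one another in sequence, so that their windows are not independent.

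Cyp3a25, Cyp3a59 and Cyp3a57 each held a pair of AAGGTCA sequences on opposite strands of the promoter window. The pairs are shown because they are nearly the same in the 3 genes while the peaks differ. Capitals again mark the 9 bases that end in AGGTCA.
Cyp3a25, site at chr5:146821341-146821349, + strand: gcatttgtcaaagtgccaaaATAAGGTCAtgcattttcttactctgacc
Cyp3a59, site at chr5:146890678-146890686, - strand: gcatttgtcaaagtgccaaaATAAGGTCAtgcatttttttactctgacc
Cyp3a57, site at chr5:146105985-146105993, - strand: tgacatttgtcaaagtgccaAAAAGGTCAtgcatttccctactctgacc
Cyp3a25, site at chr5:146821365-146821373, - strand: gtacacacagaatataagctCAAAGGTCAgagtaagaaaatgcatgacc
Cyp3a59, site at chr5:146890654-146890662, + strand: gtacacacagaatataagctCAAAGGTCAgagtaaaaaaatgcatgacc
Cyp3a57, site at chr5:146105961-146105969, + strand: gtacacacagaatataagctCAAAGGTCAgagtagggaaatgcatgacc
None of these sites was in a peak. At Cyp3a25 they lay 151 and 175 bp upstream of the 5′ end, 238 and 262 bp beyond the edge of the start-site peak. At Cyp3a59 they lay 152 and 176 bp upstream and 9.32 and 9.35 kb from the nearest peak. At Cyp3a57 the nearest peak was 681 kb away. At the 5′ end of Cyp3a25, 41.3% of 24-base words were unique in the genome, and at that of Cyp3a59, 38.8%. The median over the family was 92.4%, beside 99.8% over all protein-coding genes, and 15 of 90 Cyp genes (16.7%) were under 50%, beside 8.77%. The part that sequence similarity played in which copies had a peak was not tested.

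Within 2 kb of a start site, 12 TCAAGGTCA sequences lay at 11 Cyp genes (12.2%), and none of the 12 was in a peak, which allows a share of up to 25.0%. Over all protein-coding genes, 15.8% had such a site and 98 of 4017 sites (2.44%) were in a peak. The sites of the neighbouring genes Cyp2c38 and Cyp2c39 are shown as examples of full ESRRA sequences outside the peaks, with the 9 bases in capitals.
Cyp2c38, site at chr19:39538593-39538601, - strand: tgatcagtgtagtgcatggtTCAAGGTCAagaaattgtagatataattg
Cyp2c39, site at chr19:39584307-39584315, + strand: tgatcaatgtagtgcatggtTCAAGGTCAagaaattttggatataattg
These lay 1032 and 1041 bp upstream of their start sites.

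Over the 30-kb windows, AAGGTCA occurred 1030 times around Cyp genes, or 207 times per Mb, beside 202 per Mb around all protein-coding genes. Of these, 4 were in a peak (0.388%, interval 0.151% to 0.994%), beside 0.406%. TCAAGGTCA occurred 99 times, or 19.9 per Mb, beside 27.3 per Mb, and none of the 99 was in a peak. This allows a share of up to 3.03%, and the background share of 0.970% lies under that limit. All 37 loci held AAGGTCA and 32 held TCAAGGTCA. The Cyp2c29 array held 137 and 5 of these sequences with no peak, and the array of Cyp3a25 held 53 and 2, none of them in any of its 4 peaks.

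Among the members without a peak, the closest to one were Cyp11b1 (36.3 kb), Cyp2d11 (40.8 kb) and Cyp2d10 (54.0 kb). Both 2D genes are in the array of Cyp2d22, and Cyp2d26, of the same array, lay 441 kb from a peak. Genes known for metabolism of foreign compounds or arachidonic acid in gut or liver lay farther off. Cyp1a1, an aryl hydrocarbon receptor target, lay at 147 kb and Cyp2j6 at 500 kb. Cyp2b10 lay at 1677 kb, Cyp2s1 at 1777 kb, Cyp2c55 at 1831 kb, Cyp2c65 at 1885 kb, Cyp2c66 at 1938 kb and Cyp2c29 at 2065 kb. Cyp2u1, with TCAAGGTCA at its start, lay at 1401 kb. The fatty acid hydroxylase genes Cyp4v3, Cyp4b1 and Cyp4a10 lay at 78.4, 372 and 502 kb.

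The bile acid genes had no peak nearby. Cyp7a1, for the rate-limiting step of bile acid synthesis, lay at 346 kb, Cyp8b1, for cholic acid, at 480 kb, and Cyp27a1, for the mitochondrial side-chain pathway, at 277 kb. Cyp46a1, for cholesterol turnover in brain, lay at 82.1 kb. Of the steroid hormone genes, Cyp11a1, for the first step, lay at 55.2 kb, Cyp19a1, the aromatase gene, at 319 kb and Cyp17a1 at 417 kb. The vitamin D genes Cyp27b1 and Cyp24a1, for activation and breakdown, lay at 102 and 394 kb, and Cyp26b1, for breakdown of retinoic acid, at 104 kb.

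Genes that work with the P450 enzymes were counted under the same 30-kb rule, beside the same 8.75% of all protein-coding genes. Cyp51, Tbxas1 and Ptgis, P450 genes whose symbols have another form, had no peak at any of 3. Genes with a further letter after the last number (Cyp3a41a, Cyp3a41b, Cyp4a12a and Cyp4a12b) were also outside the member rule. None of them had a peak within 30 kb, with the nearest at 255, 441, 633 and 609 kb. Of the redox partners, 1 of 13 had a peak (7.69%), Cyb5, for cytochrome b5, at 17.7 kb. This distance was to an internal start, the 5′ end of Cyb5 was 43951 bp away, and the peak held the extended half-site. Por, the main electron donor, lay 81.2 kb from a peak. Of the genes for heme synthesis and breakdown, 2 of 13 had a peak (15.4%). Hmox2, for the constitutive heme oxygenase, had one 255 bp downstream of a start site, and Alad, for an early step of heme synthesis, had one at 23990 bp that was closer to Hdhd3. The Alad peak held AAGGTCA and the Hmox2 peak did not. Of the sensors of foreign compounds and lipids, 2 of 7 had a peak (28.6%). Ppara, the fatty acid receptor, had one 282 bp upstream, and Nr1i2, the pregnane X receptor that induces 3A genes, had one in an intron 6.97 kb downstream. Both of these peaks held AAGGTCA. The shares in this paragraph rest on lists of 3 to 13 genes, chosen with earlier results of these data known. No interval was computed for them, and a difference from the background was not tested.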

How the data were processed

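Per the labels and the study, the authors aligned paired-end reads to mm9 with Bowtie2 2.2.6, merged the ESRRA ChIP libraries with SAMtools 0.1.19 and called peaks with MACS2 at a p-value of 1e-05. The submitters' notes also name FastQC 0.11.3 and deepTools 2.4.2. The deposited values are peak positions (start and end, in bp), and all peaks were 601 bp wide. How this width arose is not given in the sources used here. Pooling hides differences between libraries, and the list holds no depth per library.

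Members and gene lists were chosen with earlier results of these data known, and the motif list after the peaks were seen. Named genes were all members with a peak, the 3 nearest members without one, members known from intestine or for a defining step, and listed partner genes with a peak. Peak midpoints were matched to GENCODE M1 start sites in Python 3.11.15 (numpy 2.4.6, scipy 1.17.1, numba 0.67.0, matplotlib 3.10.9), after the scripts were tested on simulated data. Peaks were called single-copy where their 24-base words occurred at most 10 times in the genome (median). Alternatives were other distances, single-copy peaks, other motifs, nearest genes and leaving out loci. No per-sample columns were left unused.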

Additional observations from a re-analysis of the deposited data

How the results depend on the processing

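Of 60 alternatives, 46 stayed close to the value reported and 14 did not, where counts and densities were held to 1.5 times the value and the AAGGTCA share to its interval. The 9 Cyp genes with a peak became 2 at 1 kb, 2 at 5 kb and 18 at 100 kb, and 5 when a gene had to be the closest to a peak. The 7 loci became 2, 2 and 4, and the 12 peaks 2, 2 and 6, at 1, 5 and 10 kb. The density of 2.42 peaks per Mb became 1.48 in 100-kb windows, beside 0.887 over all protein-coding genes. The 25.0% of peaks with AAGGTCA became 0% for TCAAGGTCA, 0% for TNAAGGTCA and 58.3% for AGGTCA. Leaving out each locus with a peak, chosen after the data were seen, gave 7 to 8 genes and 1.70 (without the Cyp3a25 array) to 2.41 peaks per Mb. The causes were not tested. No paired analysis was possible because peaks were called once on merged reads, and for this reason, and for lack of peak scores, neither leaving out a library nor a stricter p-value was run. A peak just past the threshold counts like a strong one, and without depth per library or peak it is not known how weak a site could be and still be called.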
